A study of Mus musculus with 64 samples.

Results

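The forkhead family was followed across 6 chromatin features in mouse B cells before and after stimulation. The family comprised every protein-coding autosomal gene whose symbol begins with Fox, a letter from a to s and a digit, which gave 41 genes of 20665 protein-coding autosomal genes and of 34328 protein-coding and lncRNA genes in the gene table. The X-linked members Foxp3, Foxo4 and Foxr2 were left out by that rule, as were 3 lncRNA genes with such symbols. Of the 41 members, 2 are lymphoid (Foxo1 and Foxp1), 9 are expressed in many tissues, and 30 are developmental or restricted to particular tissues.

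Forkhead proteins are transcription factors that bind DNA through a winged-helix domain, and most members direct the formation of particular organs. Foxo1 and Foxp1 are exceptions of interest here: Foxo1 is held in check by PI3K and Akt signalling and is needed for B cell development and for the genes Rag1, Rag2 and Il7r, and Foxp1 acts in early and mature B cells. Polycomb repressive complexes keep developmental genes silent in cells that do not use them. Complex PRC1, of which Ring1B is the catalytic subunit, places ubiquitin on histone H2A (H2AK119Ub), and complex PRC2, which contains Suz12, methylates histone H3 (H3K27me3). H3K27ac marks active promoters and enhancers, and H3K9me3 marks heterochromatin.

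CUT&RUN, in which an antibody directs a nuclease to cut chromatin around its target, was applied to CD23+ B cells from the spleen of female F1 mus x cast mice. Their mothers were C57BL/6 with a heterozygous Xist deletion and their fathers M. m. castaneus, and all 3 groups share this background. The groups were unstimulated cells (0 h) and cells given 1 µM CpG, DNA that activates TLR9, for 12 h or 24 h. There were 61 libraries: 3, 3 and 4 of H3K27me3 by time, 4, 3 and 5 of H2AK119Ub, and at every time 4 of H3K9me3 and 3 each of H3K27ac, Suz12 and Ring1B. The labels call them biological replicates without tying them to animals, so p-values measure the spread between these libraries. The labels used here state neither the age of the mice nor which of them inherited the deletion. The 3 IgG samples were not analysed here.

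Each library contributed a list of peaks from reads of the Cast allele, the allele of the castaneus father. The value used throughout is the percent of a gene region, the gene with 2 kb on each side, that lies under peaks. It depends on region length: developmental members spanned 5.31 to 545 kb with a median of 7.76 kb, broadly expressed members 16.9 to 378 kb, Foxo1 85.8 kb and Foxp1 601 kb. Peaks came from many cells, so a peak in more cells and more of the mark per cell cannot be told apart, and a region without a listed peak may hold signal below the authors' threshold.

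The 3 times were compared with limma's moderated F-test, fitted for each mark on all genes with a peak in at least 3 of its libraries, and p-values were adjusted over those genes. A member passed at an adjusted p under 0.05, and a passing member is said to rise or fall between 2 times where that contrast also had an unadjusted p under 0.05. Differences are between mean percents, in percentage points, with their standard error (SE). Where a value is scaled by autosomal cover, the percent of a region was divided by the percent of all autosomes under the peaks of the same library.

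Lists grew with stimulation for the histone marks. H3K27me3 peaks covered 1.21 to 3.84% of the autosomes at 0 h and 8.18 to 12.6% at 24 h, H2AK119Ub peaks 1.13 to 2.38% and 2.40 to 8.65%, and H3K27ac peaks 0.663 to 2.10% and 2.10 to 5.11%. Suz12 and Ring1B peaks were called as a set top fraction, so the length of a list does not measure occupancy, and they covered 1.99 to 4.11% at every time. Read depth is unknown. H3K27ac peaks lay over all 8 B cell marker genes in most libraries of every time, whereas Cd3e, Cd4 and Cd8a of T cells, Lyz2 and Cd14 of myeloid cells, Hba-a1 of erythroid cells and Sdc1 of plasma cells had none in any library. Marker genes of other cells with such a peak in most libraries numbered 1 of 6 for T cells, 0 of 3 for NK cells, 0 of 6 for myeloid cells and 1 of 4 for plasma cells at 0 h, and 2, 1, 3 and 3 at 24 h. Their part in the differences between times was not tested.

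**Figure D1:**
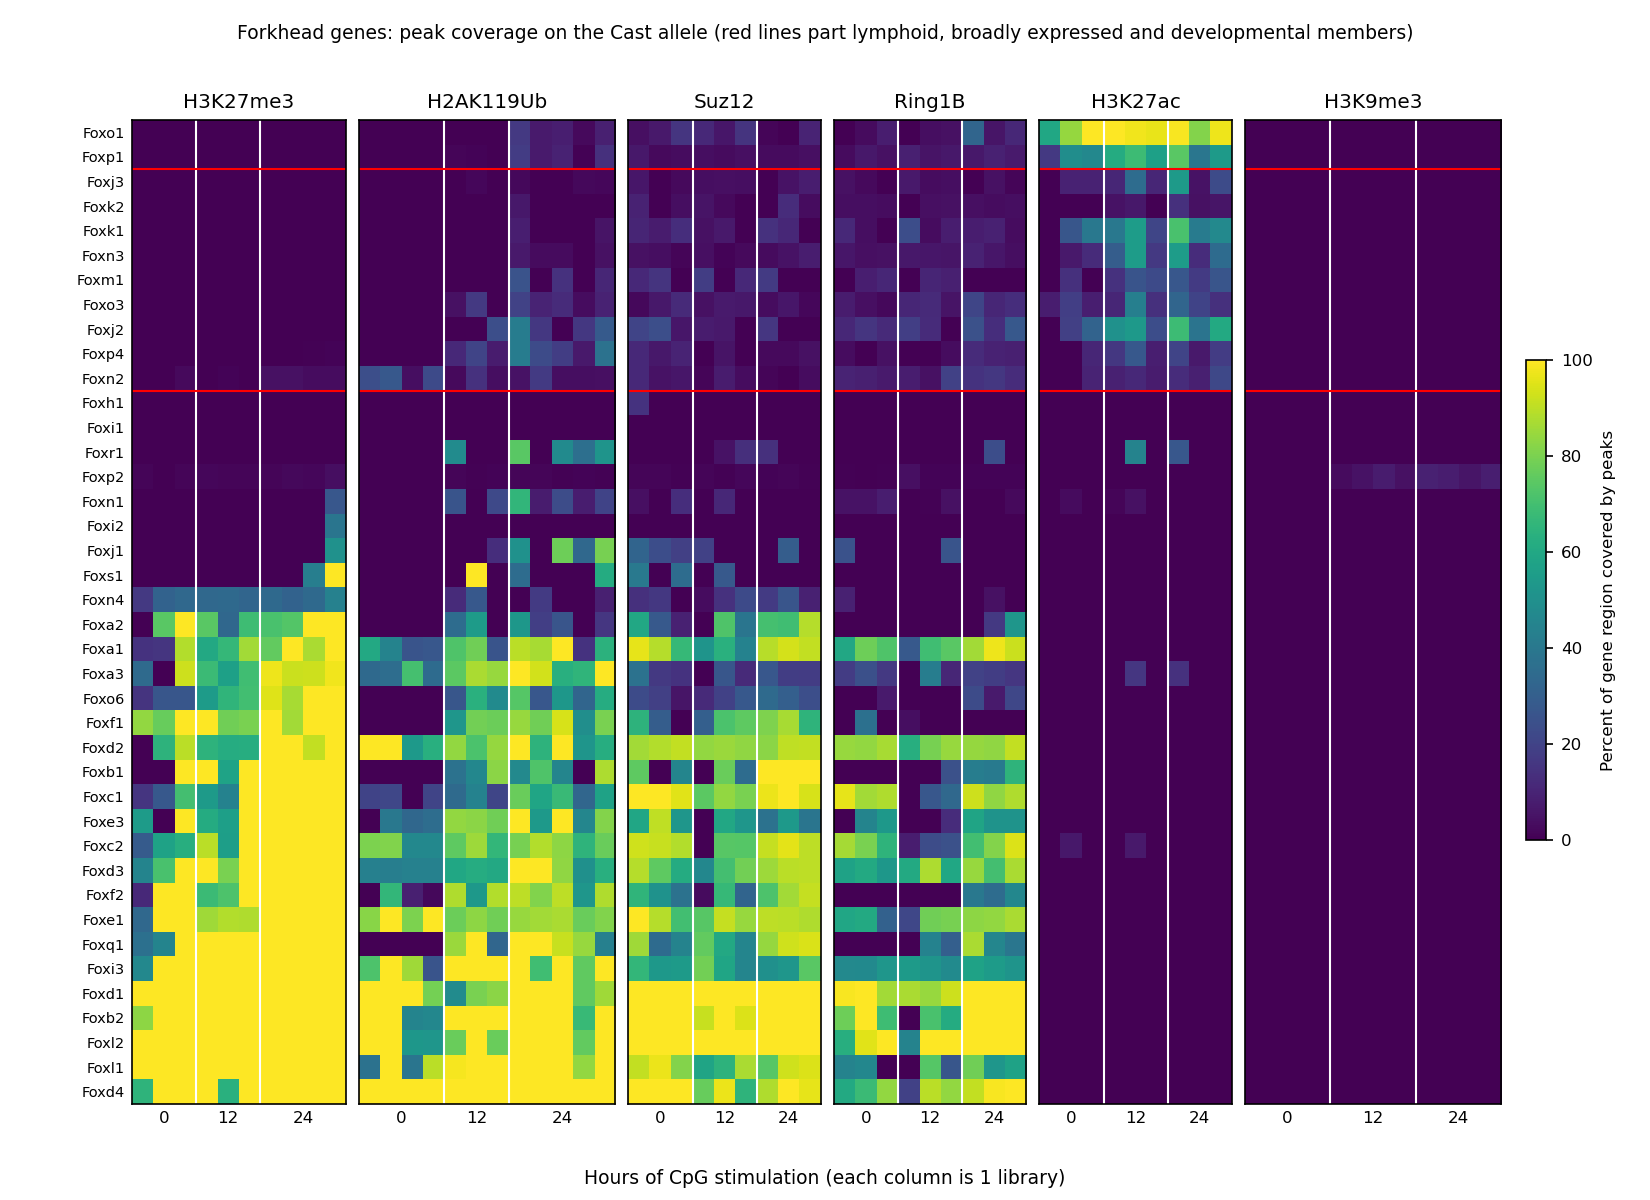
Percent of each gene region covered by peaks (colour, 0 to 100) for 40 of the 41 forkhead genes in rows and the 61 libraries in columns, grouped by antibody and by hours of CpG stimulation. The lymphoid and broadly expressed members at the top carry H3K27ac and no or almost no H3K27me3, and 18 developmental members have a mean cover over 50% in both H3K27me3 and H2AK119Ub at 24 h.

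Promoter sequences are shown for members at the ends of this pattern, from RefSeq on GRCm38.p6 (mm10), 5′ to 3′ on the strand of the gene, with every CG dinucleotide in capitals. Foxo1 carried H3K27ac over its start in all 9 libraries, and H2AK119Ub over it in 5 of 5 libraries at 24 h and in none of 7 earlier ones. Foxp1 has 3 listed starts, of which the one with most CG carried H3K27ac in 8 of 9 libraries and the outermost in none of 9. The third, chr6:99266515, whose sequence is not shown, has the fewest CG and carried H3K27ac in 3 of 3 libraries at each time. Foxl2, a gene of the ovary, was under H3K27me3 at its start in all 10 libraries, Foxf2 was the only member whose Ring1B cover passed the test over times, and Foxi1 had no peak of any antibody.
Foxo1, chr3:52268087-52268386, plus strand: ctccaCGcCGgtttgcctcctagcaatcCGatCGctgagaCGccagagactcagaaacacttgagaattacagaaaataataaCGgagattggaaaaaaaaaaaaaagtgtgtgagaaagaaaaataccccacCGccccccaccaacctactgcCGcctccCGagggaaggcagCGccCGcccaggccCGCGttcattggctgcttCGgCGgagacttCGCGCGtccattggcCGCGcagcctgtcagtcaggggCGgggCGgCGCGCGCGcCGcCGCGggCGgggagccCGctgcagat
Foxp1, start with most CG, chr6:99028249-99028548, minus strand: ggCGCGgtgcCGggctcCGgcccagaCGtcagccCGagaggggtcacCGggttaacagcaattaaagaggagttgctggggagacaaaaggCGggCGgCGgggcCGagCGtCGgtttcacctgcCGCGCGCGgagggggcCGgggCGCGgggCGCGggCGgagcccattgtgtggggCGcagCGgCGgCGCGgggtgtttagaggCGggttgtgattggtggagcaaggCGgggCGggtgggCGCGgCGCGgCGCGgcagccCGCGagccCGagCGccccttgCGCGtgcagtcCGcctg
Foxp1, outermost start, chr6:99520944-99521243, minus strand: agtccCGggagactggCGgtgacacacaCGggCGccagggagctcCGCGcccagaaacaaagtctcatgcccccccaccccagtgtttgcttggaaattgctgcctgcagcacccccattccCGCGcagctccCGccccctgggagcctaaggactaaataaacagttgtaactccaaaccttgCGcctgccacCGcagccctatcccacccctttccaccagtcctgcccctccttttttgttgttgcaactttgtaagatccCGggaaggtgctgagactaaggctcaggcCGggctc
Foxl2, chr9:98955357-98955656, plus strand: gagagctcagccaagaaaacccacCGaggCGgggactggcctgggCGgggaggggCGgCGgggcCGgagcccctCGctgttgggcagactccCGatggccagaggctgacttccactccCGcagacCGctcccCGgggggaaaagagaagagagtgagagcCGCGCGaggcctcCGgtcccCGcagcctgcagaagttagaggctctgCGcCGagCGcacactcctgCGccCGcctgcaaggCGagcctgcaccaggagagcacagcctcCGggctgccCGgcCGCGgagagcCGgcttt
Foxf2, chr13:31625566-31625865, plus strand: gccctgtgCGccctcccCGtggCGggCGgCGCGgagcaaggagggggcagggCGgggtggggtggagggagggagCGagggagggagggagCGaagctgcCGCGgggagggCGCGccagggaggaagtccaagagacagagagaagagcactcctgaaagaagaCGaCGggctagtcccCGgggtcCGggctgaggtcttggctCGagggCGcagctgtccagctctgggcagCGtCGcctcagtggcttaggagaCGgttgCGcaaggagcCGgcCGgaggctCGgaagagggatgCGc
Foxi1, chr11:34208040-34208339, minus strand: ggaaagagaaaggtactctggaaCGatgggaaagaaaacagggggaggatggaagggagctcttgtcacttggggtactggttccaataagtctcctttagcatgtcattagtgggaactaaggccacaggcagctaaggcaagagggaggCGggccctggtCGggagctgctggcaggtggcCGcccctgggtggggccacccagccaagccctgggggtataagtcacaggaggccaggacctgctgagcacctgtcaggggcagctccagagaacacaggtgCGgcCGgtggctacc

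The letters CG were counted in each promoter window, where a count on either strand is the same. Foxo1 holds 31 and 10.6% of all 32851 promoter windows of this length hold as many. Foxp1 holds 44 at the start with most CG (2.25%), 13 at the outermost (37.9%) and 5 at the third (62.0%). Foxl2 and Foxf2 hold 27 each (15.5%), and Foxi1 holds 6 (56.4%). Over the 26 members with a listed promoter the median was 22.5 CG in 30 windows, beside 7 over all windows. Taking the window with most CG of each gene, the 13 developmental members with a mean H3K27me3 cover over 50% at 24 h had 10 to 32 CG with a median of 25, and the 5 others, Foxi1, Foxi2, Foxn1, Foxn4 and Foxr1, had 5 to 22 with a median of 8. The 8 lymphoid and broadly expressed members, which had almost no H3K27me3, had 6 to 59 with a median of 36, so CG content alone did not order the members by this mark. Members without a listed window included Foxb1, Foxc2, Foxe1, Foxf1, Foxh1, Foxj1, Foxk1, Foxl1, Foxm1, Foxn2, Foxo6, Foxp2, Foxq1 and Foxs1.

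The lymphoid members, Foxo1 (chr3:52268337-52350109, plus strand) and Foxp1 (chr6:98925342-99522746, minus strand), were acetylated at every time and were free of H3K27me3 peaks in all 10 libraries. H3K27ac covered 59.8, 84.3 and 100% of Foxo1 at 0 h, 100, 98.0 and 96.5% at 12 h, and 99.2, 81.3 and 97.7% at 24 h. The times overlapped, and the difference between 24 and 0 h was 11.4 percentage points with an SE of 12.0 (limma adjusted p = 0.557). Foxp1 was covered to 16.4, 49.0 and 46.7% at 0 h, 61.5, 68.7 and 56.9% at 12 h, and 74.5, 39.4 and 54.4% at 24 h. All 3 libraries at 12 h stood above all 3 at 0 h, while 24 h overlapped both, and the difference between 24 and 0 h was 18.7 points with an SE of 13.7 (limma adjusted p = 0.423). The lowest value of both genes came from 0 h replicate 1, which has the shortest H3K27ac list, 1450 peaks, and without it the differences were 0.592 points for Foxo1 and 8.26 for Foxp1. Divided by each library's autosomal cover, both differences turn negative and neither passed (-30.1 and -6.91 on that scale, the ratio to autosomal cover).

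H2AK119Ub appeared on both lymphoid members by 24 h. On Foxo1 it covered 0% in each of 4 libraries at 0 h and 3 at 12 h, and 16.5, 7.26, 8.34, 2.5 and 8.66% in the 5 libraries at 24 h. Every 24 h library was above every earlier one. The mean rose to 8.66% ± 5.05 (SD, n = 5), a difference of 8.66 points with an SE of 2.23 (limma adjusted p = 0.0176). Foxo1 met the filter of a peak in at least 3 libraries only through the 24 h group, where it is high. On Foxp1 it covered 0% in all 4 libraries at 0 h, 1.48, 1.04 and 0% at 12 h, and 17.6, 7.16, 9.43, 0.571 and 13.8% at 24 h. Replicate 4 at 24 h lay among the 12 h values, and the other libraries stood above them. The Foxp1 mean at 24 h was 9.73% ± 6.52 (SD, n = 5) and rose by 9.73 points over 0 h with an SE of 2.84 (limma adjusted p = 0.0341). Foxp1 too met the filter of a peak in at least 3 libraries only through the 24 h group. The Foxp1 call ended without any of the 4 libraries at 0 h (adjusted p = 0.0659 to 0.0737), without 12 h replicate 2 or 3 (0.0503 and 0.0508) and without 24 h replicate 5 (0.0628), whereas the Foxo1 call held with each library left out in turn. Both calls ended when only the 50% of peaks with most signal in each list were kept (Foxo1 0.0882, Foxp1 0.0663).

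**Figure D2:**
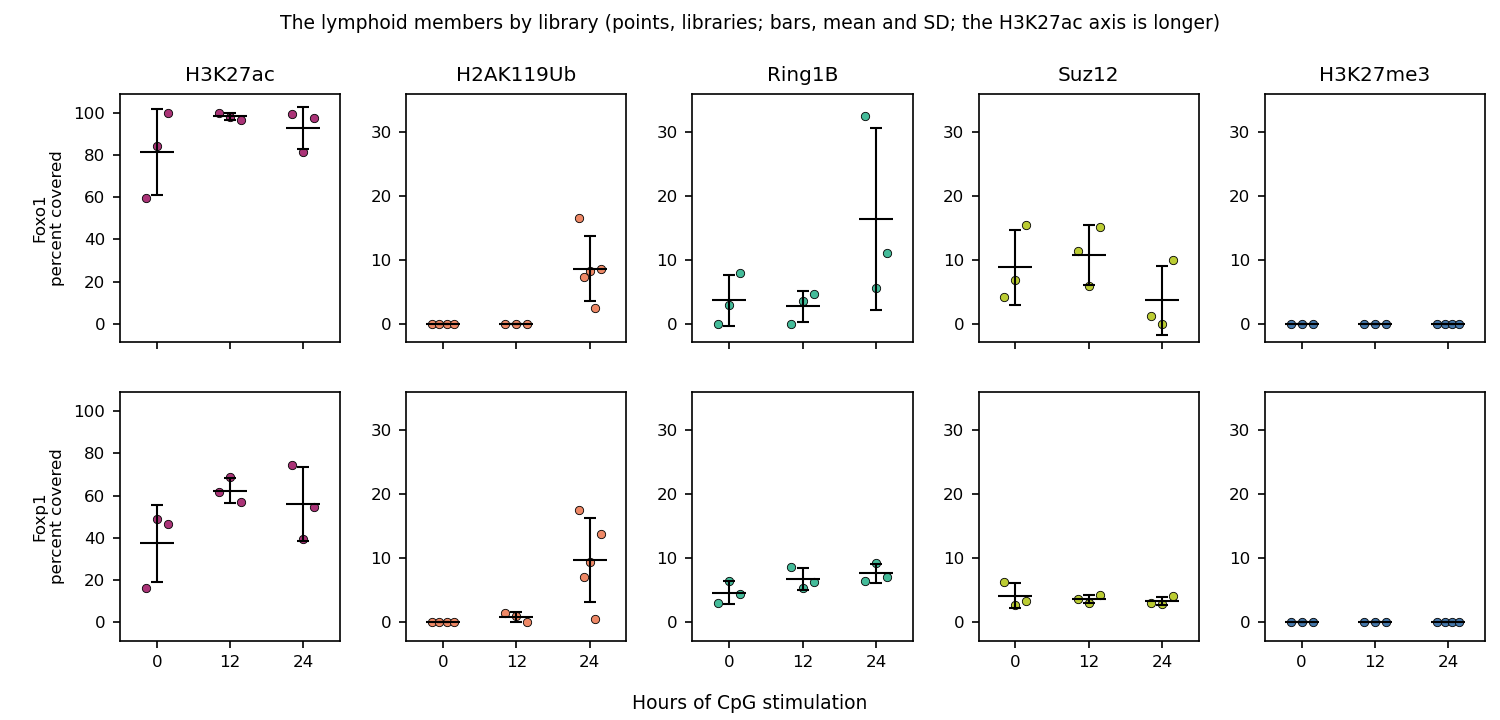
Percent of the Foxo1 (upper row) and Foxp1 (lower row) regions covered by peaks of 5 antibodies at 0, 12 and 24 h of CpG, with points for libraries and bars for mean and SD. H2AK119Ub on Foxo1 is at 0 in all 7 libraries before 24 h and at 2.5 to 16.5% in the 5 libraries at 24 h, H3K27me3 is at 0 in every library, and the H3K27ac axis is longer than the others.

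H2AK119Ub did not lie in the same place in the 2 genes. At 24 h, bases of Foxo1 under H2AK119Ub in most libraries formed 2 blocks from the 5′ edge of the region to 0.585 kb after the start and from 1.05 to 4.23 kb after it. In each library 2.14 to 14.2 kb of Foxo1 was covered, and 98.9 to 100% of that also lay under H3K27ac found in most 24 h libraries, which covers 98.3% of the whole region. In Foxp1 the mark formed 8 blocks of 44.1 kb in all, between 21.6 and 242 kb from the 5′ end of the gene, and none of its 3 listed starts was covered in any library. Of the 3.43 to 106 kb covered per library in Foxp1, 33.7 to 39.1% lay under H3K27ac, which covers 56.2% of the region, except in replicate 4 with the least cover (100%). The H3K27ac of Foxp1 at 24 h formed 19 blocks of 338 kb in all, the longest of 101 kb.

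**Figure D3:**
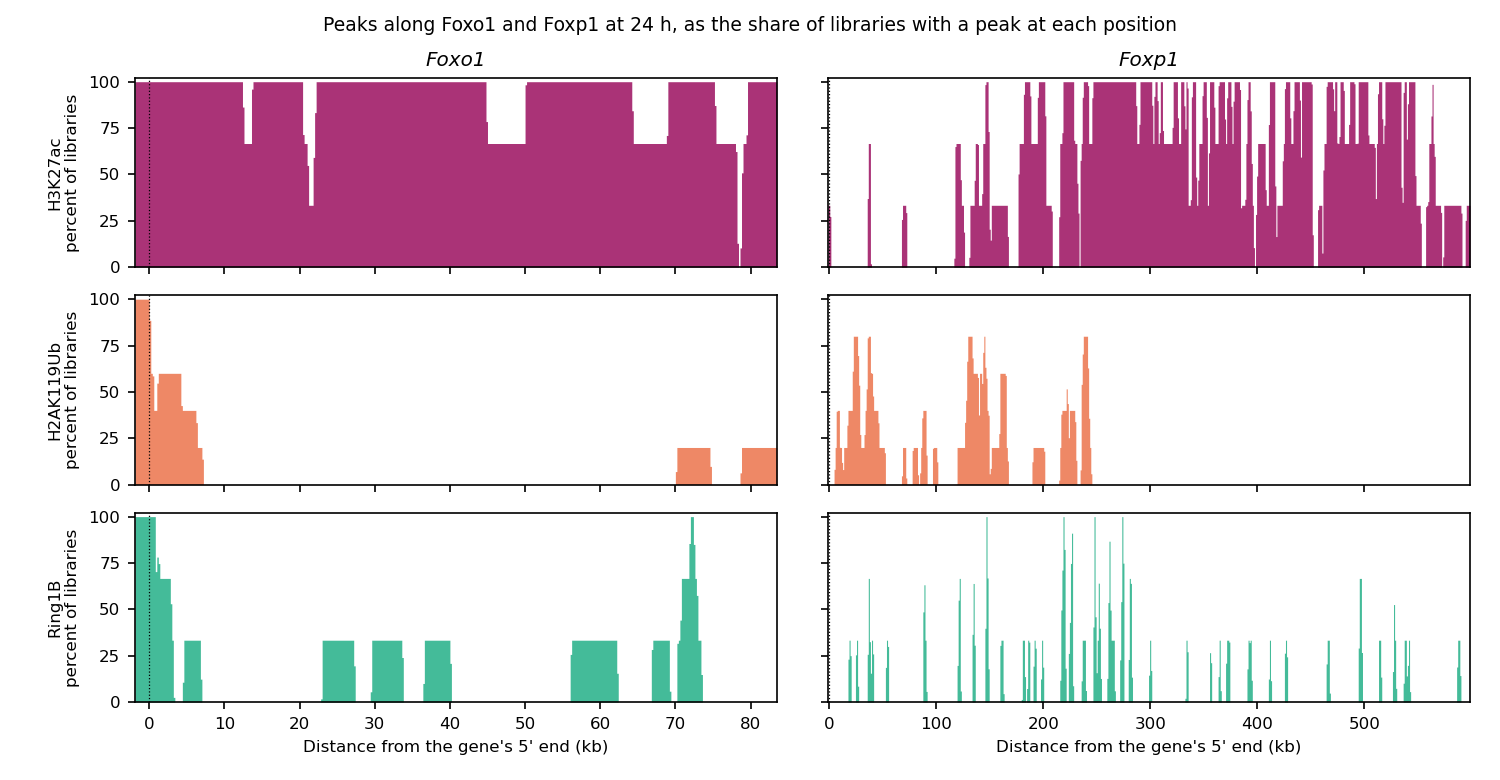
Share of 24 h libraries (percent) with a peak at each distance from the 5′ end of Foxo1 and Foxp1 in kb, for H3K27ac, H2AK119Ub and Ring1B. In Foxo1 all 5 H2AK119Ub libraries have a peak at the start, and in Foxp1 the blocks shared by most libraries lie from 21.6 to 242 kb into the gene.

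The Polycomb proteins were listed on both lymphoid genes at low cover with no change past the test. Ring1B covered 0, 3.01 and 7.97% of Foxo1 at 0 h, 0, 3.61 and 4.66% at 12 h, and 32.5, 5.65 and 11.1% at 24 h, with overlap between 0 and 24 h (limma adjusted p = 0.675). Its peak reached the start of Foxo1 in none of 3 libraries at 0 h, 1 of 3 at 12 h and 3 of 3 at 24 h. Suz12 covered 4.23, 6.90 and 15.5% of Foxo1 at 0 h, 11.4, 5.86 and 15.1% at 12 h and 1.23, 0 and 9.91% at 24 h (adjusted p = 0.759), and it lay over the start in 2 of 3, 2 of 3 and 0 of 3 libraries. On Foxp1, Ring1B covered 3.04, 6.48 and 4.49% at 0 h, 8.73, 5.42 and 6.29% at 12 h, and 6.46, 9.36 and 7.12% at 24 h (adjusted p = 0.894). Suz12 covered 6.37, 2.73 and 3.31% of Foxp1 at 0 h, 3.58, 3.01 and 4.28% at 12 h, and 2.97, 2.89 and 4.09% at 24 h (adjusted p = 0.981). The values of the 3 times overlapped for both proteins on Foxp1, and the sign of its Suz12 difference changed with the processing.

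The 9 broadly expressed members resembled the lymphoid pair in holding acetylation and little H3K27me3. All 9 had an H3K27ac peak in most libraries at 12 and at 24 h, and 5 of 9 at 0 h. Foxj2, which had the highest mean of them at 24 h, was covered to 0, 19.0 and 31.9% at 0 h, 50.7, 53.8 and 23.5% at 12 h, and 68.7, 38.5 and 60.6% at 24 h. Its 24 h values all stood above its 0 h values, and the difference of 39.0 points had an SE of 13.6 (limma adjusted p = 0.237). Mean cover over the 9 genes ranged from 0.887 to 13.7% over libraries at 0 h and from 17.2 to 39.7% at 24 h. Averaged over libraries it was 8.34, 23.1 and 28.3% at 0, 12 and 24 h, below the 59.4, 80.3 and 74.4% of the lymphoid pair. Protein-coding autosomal genes averaged 3.81, 9.07 and 10.0%. Over the 41 members, 12 could be tested for H3K27ac and none passed, while 1.46% of 9342 genes passed. At an unadjusted p under 0.05 there were 2 of the 12 members and 1953 of the 9342 genes. The 2 members were Foxj2 and Foxm1, the latter a driver of mitotic genes. A further 3 members had a peak in only 1 or 2 libraries and 26 had none. The median difference between 24 and 0 h was 15.1 points over the 12 members and 12.0 over all genes tested.

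H2AK119Ub rose on 2 broadly expressed members, Foxp4 and Foxn3. Foxp4 was at 0% in all 4 libraries at 0 h, 11.6, 20.6 and 7.69% at 12 h, and 42.0, 23.0, 18.1, 6.65 and 37.6% at 24 h (adjusted p = 0.0396), and Foxn3 reached a mean of 3.39% ± 2.45 (SD, n = 5) from 0% before (adjusted p = 0.0495). Foxn3 met the filter of a peak in at least 3 libraries only through the 24 h group, where it is high. The Foxn3 call ended without any 1 of the 12 libraries except 24 h replicate 4, and the Foxp4 call without any of the 4 libraries at 0 h, 12 h replicate 1, or 24 h replicate 2 or 5. Foxo3, another Foxo factor, was at 0% in all 4 libraries at 0 h, 4.55, 16.6 and 0% at 12 h, and 19.8, 9.77, 12.3, 3.24 and 9.63% at 24 h (adjusted p = 0.0949). At 24 h, 70.9 to 97.8% of the Foxo3 cover lay under H3K27ac, which covers 20.3% of that region, and 2 shared blocks lay at its 5′ end, as in Foxo1. Of the 13 members with some H2AK119Ub and some H3K27ac at 24 h, 11 were the lymphoid and broadly expressed genes and 2 were Foxa3 and Foxr1. H2AK119Ub was listed in at least 3 libraries without any H3K27me3 peak in 8 members: Foxj2, Foxj3, Foxm1, Foxn3, Foxo1, Foxo3, Foxp1 and Foxr1. The shares of all genes with either combination of marks are not given here, so these counts of 13 and 8 have no background.

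Many developmental members were under Polycomb marks already in unstimulated cells, with an H3K27me3 peak in most libraries at 21 of 30 and an H2AK119Ub peak at 15. Foxh1, Foxi1, Foxi2, Foxj1, Foxn1, Foxr1 and Foxs1 had no listed peak of either mark at 0 h. Mean H3K27me3 cover exceeded 50% in 14 of 30 at 0 h, 20 at 12 h and 21 at 24 h, while 2.48, 5.36 and 12.4% of protein-coding autosomal genes did. The mean H3K27me3 cover of developmental members was 45.1% ± 16.7 at 0 h (SD, n = 3), 57.0% ± 6.08 at 12 h (n = 3) and 71.5% ± 4.73 at 24 h (n = 4), beside 4.42, 7.59 and 14.5% over protein-coding autosomal genes. Their mean H2AK119Ub cover was 30.1% ± 5.62 (n = 4), 51.3% ± 4.73 (n = 3) and 56.0% ± 10.5 (n = 5), beside 3.08, 10.2 and 12.9%. Foxd1 of the kidney stroma, Foxl1 of the gut mesenchyme and Foxl2 were covered to 100% in all 10 libraries, so this measure could not rise there. No developmental member had an H3K27ac peak in most libraries at 0 or 24 h. A lack of H3K27me3 was not confined to acetylated genes: Foxh1, a partner of Smad proteins, Foxi1 of the inner ear and Foxr1 had no such peak in any library, and Foxi2, Foxj1, Foxn1 and Foxs1 in 1 or 2 libraries only, all at 24 h. Foxs1 was at 0, 0, 42.7 and 100% at 24 h, and the other 3 had a peak in replicate 4 alone, at 39.1% of Foxi2, 50.7% of Foxj1 and 27.3% of Foxn1. That replicate has the highest family mean for H3K27me3 at 24 h, 57.2%.

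Over the 41 members, 25 could be tested for H3K27me3 and 5 passed, all higher at 24 h, beside 56.8% of 11914 genes passing and 56.5% passing and higher at 24 h. The other 12 members had no peak, and 4 had a peak in only 1 or 2 libraries. Of the 20 tested members that did not pass, 14 had a mean over 50% at 0 h and 16 a mean over 90% at 24 h. The median difference over the 25 members was 27.8 points and over all genes 28.9. Without 0 h replicate 3, the library with most cover at 0 h, 12 members passed, all higher. That library was highest or tied at 23 of the 24 members with a peak at 0 h. After division by each library's autosomal cover, 8 members passed and all 8 were lower at 24 h, among them the 3 fully covered genes, whose scaled value must fall when the list grows. The shares of all genes passing in these other fits are not given here, so these counts have no background.

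Foxo6, a forkhead gene of the brain, rose in steps in H3K27me3. It was covered to 15.2, 26.9 and 26.8% at 0 h, 55.0, 65.4 and 69.5% at 12 h, and 95.2, 86.8, 100 and 100% at 24 h. The 3 times did not overlap, and the mean rose by 72.5 points with an SE of 8.31 (limma adjusted p = 0.000594). Foxo6 kept its call when every list was reduced to equal numbers of peaks.

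Foxc1 and Foxc2, paralogs that act in mesoderm, vessels and the eye, also rose. Foxc1 was covered to 15.6, 27.5 and 70.2% at 0 h, 54.4, 44.2 and 100% at 12 h, and 100% in all 4 libraries at 24 h (difference 62.3 points, SE 16, limma adjusted p = 0.0257). Foxc2 was covered to 28.8, 57.5 and 62.6% at 0 h, 89.5, 55.9 and 100% at 12 h, and 100% in all 4 at 24 h (difference 50.4 points, SE 12.2, adjusted p = 0.0210). In both genes 24 h stood above all of 0 h, and 12 h overlapped both other times. With the scaling by autosomal cover the differences of Foxc1, Foxc2 and Foxo6 were negative and none passed, and that of Foxn2 stayed positive without passing (adjusted p = 0.265). With equal numbers of peaks, Foxc1 and Foxc2 did not pass (adjusted p = 0.113 and 0.157), and leaving out 0 h replicate 1 ended both calls (0.0727 and 0.0592). The Foxc1 call also ended without 0 h replicate 2 (0.0730), 24 h replicate 1 (0.0503) or 24 h replicate 4 (0.0534), and the Foxc2 call with the gene taken without flanks (0.204).

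The call on Foxn2, a broadly expressed member, rested mostly on cover beside the gene. Foxn2 was covered to 0, 0 and 2.47% at 0 h, 0, 0.821 and 0% at 12 h, and 4.68, 4.43, 3.31 and 3.48% at 24 h (difference 3.15 points, SE 0.803, limma adjusted p = 0.00839). The 24 h values stood above all earlier ones. Foxn2 met the filter of a peak in at least 3 libraries only through the 24 h group, where it is high. The bases covered in most 24 h libraries were chr17:88438704-88440578, 1.88 kb in the flank that ends at the lower-numbered end of the gene, as part of a peak of 17.1 to 17.8 kb that runs outside the region. In replicates 1 and 2 at 24 h the covered length was 2.52 and 2.38 kb, more than the 2 kb flank holds.

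**Figure D4:**
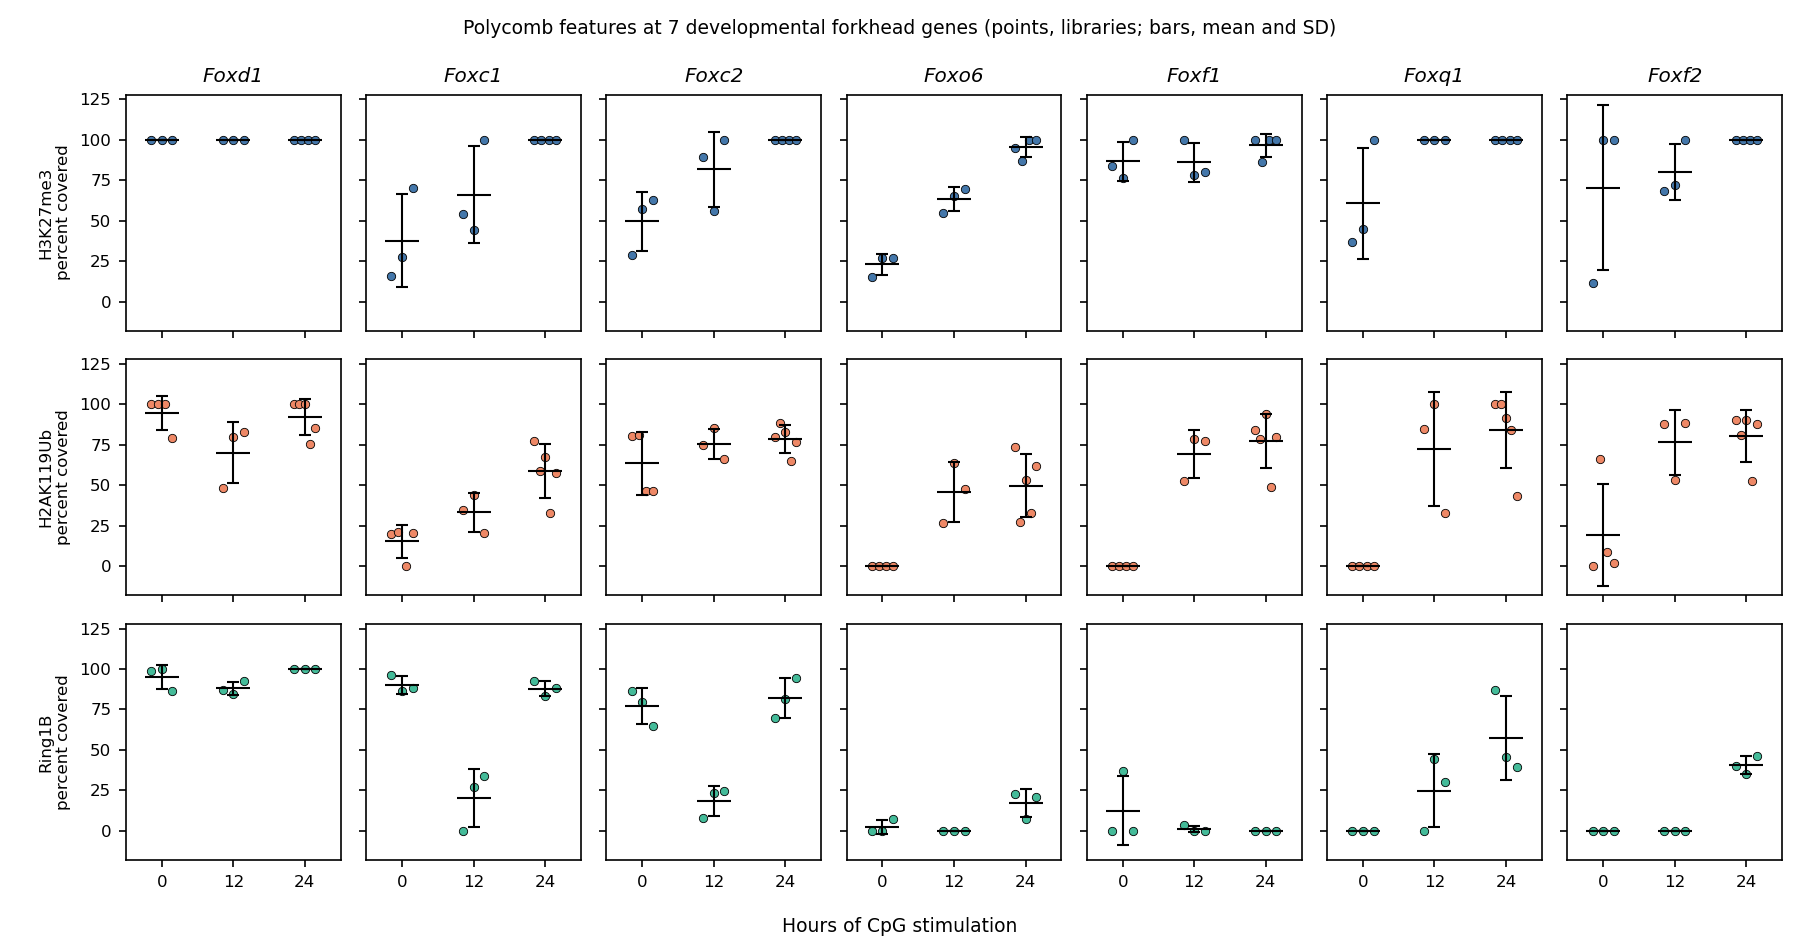
Percent of the region covered by H3K27me3, H2AK119Ub and Ring1B (rows) at 7 developmental forkhead genes (columns) against hours of CpG, with points for libraries and bars for mean and SD. Foxd1 is at 100% H3K27me3 throughout, and Foxf1, Foxq1 and Foxo6 go from 0% H2AK119Ub in all 4 libraries at 0 h to means of 77.2, 83.9 and 49.8% at 24 h.

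H2AK119Ub passed the test at 13 of 35 members tested, all higher at 24 h, beside 33.2% of 13845 genes passing and 31% passing and higher at 24 h. The share of members, 37.1%, was close to that background, and the median difference was 20.5 points over the members and 18.0 over all genes. Of the 13, 9 were developmental, 2 lymphoid and 2 broadly expressed, of 26, 2 and 7 tested, and 9 had no peak at all at 0 h. A call between 12 and 0 h was made at 7 members, and the share of all genes with such a call is not given here, so this count has no background. A further 2 members had a peak in 1 or 2 libraries, and 4 had none, among them Foxh1, Foxi1 and Foxi2. The count of 13 fell to 5 without 0 h replicate 1 or replicate 3, 6 without replicate 4 and 8 without replicate 2, and Foxf1, Foxo1, Foxo6 and Foxq1 passed in each of these 4 fits. After scaling by autosomal cover 18 passed, 9 higher and 9 lower. For these other fits, too, the shares of all genes passing are not given here.

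Foxf1, a gene of lung and gut mesenchyme, and Foxq1, a gene of skin and stomach, carried H3K27me3 at 0 h without H2AK119Ub. At Foxf1 H2AK119Ub was at 0% in all 4 libraries at 0 h, 52.5, 78.6 and 77.4% at 12 h, and 84.5, 78.3, 93.9, 49.2 and 79.9% at 24 h (difference 77.2 points, SE 9.62, limma adjusted p = 0.000460). At Foxq1 it was at 0% in all 4 at 0 h, 85.1, 100 and 33.0% at 12 h, and 100, 100, 91.6, 84.4 and 43.7% at 24 h (difference 83.9 points, SE 14.6, adjusted p = 0.00404). In both genes every stimulated library stood above every unstimulated one, and 12 and 24 h overlapped. H3K27me3 on Foxf1 was already 83.7, 76.6 and 100% at 0 h and on Foxq1 37.0, 45.1 and 100%. With equal numbers of peaks in every list, the Foxf1 call ended (adjusted p = 0.586) and the Foxq1 call held. The Foxf1 region also holds Fendrr, a neighbouring lncRNA gene, and their signals cannot be told apart here. The same holds for other members whose regions hold other genes. Among them are Foxa3 with Sympk, Foxj1 with Rnf157, Foxj2 with C3ar1, and Foxm1 with Rhno1 and Tex52.

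H2AK119Ub also rose on Foxo6, Foxf2 and Foxb1. The mark on Foxo6 was at 0% in all 4 libraries at 0 h, 26.6, 63.5 and 47.8% at 12 h, and 73.7, 27.3, 53.1, 32.7 and 62.1% at 24 h (difference 49.8 points, SE 10.7, limma adjusted p = 0.0108). Foxf2, the paralog of Foxf1, was at 0, 66.3, 8.81 and 2.20% at 0 h, 88.0, 53.2 and 88.6% at 12 h, and 90.1, 81.1, 90.1, 52.6 and 88.1% at 24 h (difference 61.1 points, SE 14.8, adjusted p = 0.0182). Foxb1, a gene of the diencephalon, was at 0% in all 4 at 0 h, 37.7, 46.3 and 82.4% at 12 h, and 47.0, 72.5, 45.7, 0 and 87.8% at 24 h (difference 50.6 points, SE 15.7, adjusted p = 0.0392). Foxo6 showed no overlap between stimulated and unstimulated libraries. In Foxf2 the 0 h replicate 2 stood among the stimulated values, and in Foxb1 the 24 h replicate 4 stood with the unstimulated ones. Replicate 4 has the shortest list at 24 h, 10963 peaks, and was alone the lowest at 21 members. The Foxb1 call ended without any of the 4 libraries at 0 h (adjusted p = 0.0873 to 0.0971), without 12 h replicate 3 (0.0503), without 24 h replicate 2 (0.0524) and with the scaling by autosomal cover (0.0574). The Foxf2 call ended without 0 h replicate 1, 3 or 4 (0.0610 to 0.0651) and with that scaling (0.486). The other developmental members past the test were Foxa3 of the liver, Foxc1, Foxe3 of the lens and Foxj1, the regulator of motile cilia, with adjusted p from 0.0168 to 0.0335. Foxa3 was at 34.3, 35.6, 70.4 and 35% at 0 h, 74.6, 87.4 and 84.6% at 12 h, and 100, 93.2, 63.1, 65.4 and 100% at 24 h. Foxe3 was at 0, 40.2, 33.5 and 35.6%, then 83.8, 82.6 and 78.4%, then 100, 54.2, 100, 45.9 and 81.6%. Foxc1 was at 20, 21.1, 0 and 20.4%, then 34.7, 44.2 and 20.7%, then 77.2, 58.8, 67.6, 33.2 and 57.5%. In Foxe3 and Foxc1 every library at 24 h stood above every library at 0 h, and in Foxa3 the 0 h replicate 3 lay among the 24 h values. Foxj1 was at 0% in all 4 libraries at 0 h, 0, 0 and 13.1% at 12 h, and 50.7, 0, 78.0, 33.8 and 79.5% at 24 h, with replicate 2 at 24 h among the earlier values. Foxj1 met the filter of a peak in at least 3 libraries only through the 24 h group, where it is high. Foxa2, which did not pass, was at 0% in all 4 at 0 h, 35.3, 55.0 and 0% at 12 h, and 52.9, 18.4, 26.3, 0 and 15.9% at 24 h.

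Foxd4 was under H2AK119Ub to 100% in all 12 libraries, and 13 members had a peak of it in every library. At 0 h, 8 members exceeded 50% mean cover in both Polycomb marks, 6 in H3K27me3 only (Foxa2, Foxd3, Foxe3, Foxf1, Foxf2 and Foxq1) and Foxc2 in H2AK119Ub only, with H3K27me3 at 49.6%. At 24 h, 18 exceeded 50% in both, 3 in H3K27me3 only, among them Foxa2, a pioneer factor of endoderm, and Foxo6, and none in H2AK119Ub only. Across the 41 members, whose values come from the same libraries, the Spearman correlation of mean cover between H3K27me3 and H2AK119Ub was 0.78 at 0 h and 0.82 at 24 h, and that between H3K27me3 and H3K27ac was -0.56 and -0.73.

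**Figure D5:**
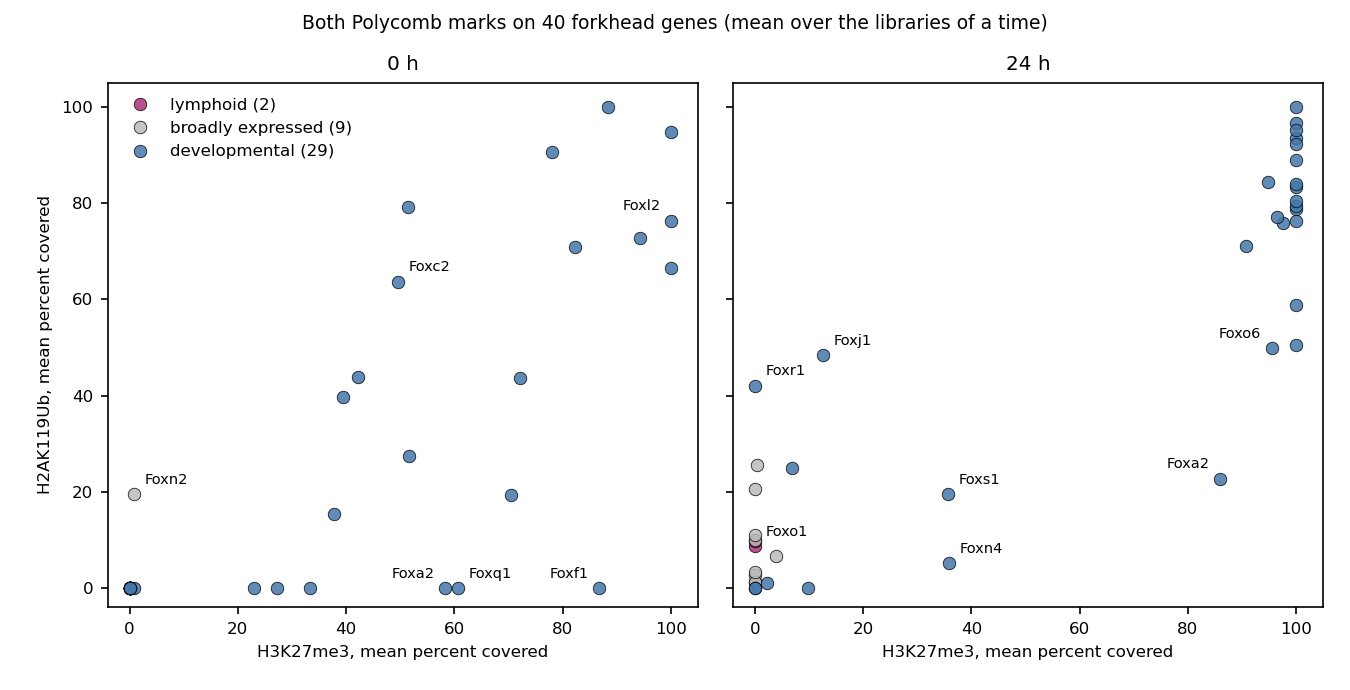
Mean percent covered by H2AK119Ub against mean percent covered by H3K27me3 for 40 of the 41 members at 0 h (left) and 24 h (right), coloured by role. At 0 h Foxf1, Foxq1 and Foxa2 have H3K27me3 over 50% with no H2AK119Ub, and at 24 h 18 developmental members exceed 50% in both marks.

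Of 6 pairs of neighbouring members, 2 shared peaks and are not independent, and 4 shared none. A peak of H3K27me3 ran across both Foxc2 and Foxl1, 8.79 kb apart on chromosome 8, in all 10 libraries, and a peak of H2AK119Ub did so in 4 of 4, 2 of 3 and 5 of 5 libraries at 0, 12 and 24 h. Foxd2 and Foxe3, 15.5 kb apart on chromosome 4, were joined by an H3K27me3 peak in 3 of 4 libraries at 24 h and in none of 6 before, and by an H2AK119Ub peak in 2 of 4, 3 of 3 and 2 of 5 libraries at 0, 12 and 24 h. The longest H3K27me3 peak touching a member reached far beyond a short region: its median was 25 kb at Foxd1 and 18.2 kb at Foxl2 at 0 h, and 61.9 and 41.2 kb at 24 h.

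The Polycomb proteins were found on the same developmental genes. Suz12 covered 100% of Foxd1 and of Foxl2 in all 9 libraries. Foxb2 was at 100% in all 3 libraries at 0 h, 91.7, 100 and 94.9% at 12 h, and 100% in all 3 at 24 h. None of 37 members tested passed for Suz12, and none of 18049 genes did (0%), with 5 members and 1582 genes at an unadjusted p under 0.05. Those 5 were Foxa1, Foxb1, Foxc1, Foxf2 and Foxp4. Foxi1 and Foxi2 had no Suz12 peak, and 2 members had 1 in only 1 or 2 libraries. Mean Suz12 cover over the developmental members was 48.6% ± 7.12 in unstimulated libraries, 42.0% ± 8.71 after 12 h and 55.0% ± 1.91 after 24 h (SD, n = 3 each).

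Ring1B on Foxf2 was the only call among 31 members tested, beside 0.085% of 17641 genes. At an unadjusted p under 0.05 there were 10 of the 31 members and 1540 of the 17641 genes. Foxf2 was at 0% in all 3 libraries at 0 h and at 12 h, and at 40.2, 35.3 and 46.3% at 24 h. All 3 libraries at 24 h stood above the 6 earlier ones, and the mean rose to 40.6% ± 5.51 (SD, n = 3; difference 40.6 points, SE 5.67, limma adjusted p = 0.0480). Its peaks at 24 h alone brought it past the filter of 3 libraries, and the call ended when any of the 9 libraries was left out or either other filter was used. A further 5 members had a Ring1B peak in 1 or 2 libraries and 5 had none, among them Foxh1, Foxi1, Foxi2 and Foxs1. The 3 members with most Ring1B over all libraries were Foxd1, Foxl2 and Foxd2. Foxd1 was at 99, 100 and 86.2% at 0 h, 87.2, 84.6 and 92.3% at 12 h and 100% in all 3 at 24 h. Foxl2 was at 62.8, 95.4 and 100%, then 44.8, 100 and 100%, then 100% in all 3. Foxd2, whose difference changed sign without 24 h replicate 3, was at 84.4, 83.9 and 87.1%, then 62.6, 79.6 and 84.4%, then 84.4, 83.4 and 90.7%.

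Foxc1 and Foxc2 had a lower Ring1B cover at 12 h than at either other time, without passing over all genes. Foxc1 was at 96.2, 86.3 and 88.0% at 0 h, 0, 27.2 and 33.9% at 12 h, and 92.5, 83.2 and 88.1% at 24 h (adjusted p = 0.0541). Foxc2 was at 86.7, 79.8 and 64.9%, then 7.96, 23.2 and 24.8%, then 69.8, 81.5 and 94.6% (adjusted p = 0.0616). In both genes the 12 h libraries lay below all others. The lowest values came from 12 h replicate 1, which has the fewest Ring1B peaks of the 9 Ring1B libraries, 18141. Its peaks have a median length of 5360 bp and cover the most autosome of the 9, 4.11%. Mean Ring1B cover over all members was 11.6% in that library and 24.1 and 23.1% in 12 h replicates 2 and 3. The cause of the lower cover at 12 h was not tested. Both genes passed when the 50% of peaks with most signal or equal numbers of peaks were kept. Both were chosen for this description after their values were seen.

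H3K9me3 was seldom listed on the family, with no peak in any library at 40 of 41 members. The exception was Foxp2, a gene of brain circuits with the second longest region, 545 kb. Foxp2 was at 0% in all 4 libraries at 0 h, 2.85, 4.79, 7.62 and 4.46% at 12 h, and 9.36, 8.10, 5.50 and 8.48% at 24 h. Stimulated libraries all stood above unstimulated ones, and the mean rose by 7.86 points with an SE of 1.27 (limma adjusted p = 0.00210, 1 of 1 member tested, beside 52.3% of 2332 genes passing and 51.4% passing and higher at 24 h). Blocks shared by most 24 h libraries were chr6:14967256-14972522, chr6:15060830-15067573 and chr6:15072264-15077542, inside the gene, whereas H3K27me3 on Foxp2 at 24 h lay at the ends of the region, at chr6:14899349-14906720 and chr6:15442311-15443977. The Foxp2 call ended with the 50% of peaks with most signal (adjusted p = 0.0965).

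Genes around the Foxo factors were described in the same way. Of 17 regulators of Foxo proteins, 7 could be tested for H2AK119Ub and 2 passed, both higher at 24 h, beside 31% of all genes tested: Pik3cd, the lymphoid PI3K catalytic subunit, from 0% to a mean of 21.7% ± 14.9, and Pik3r1, its regulatory subunit, from 0% to 14.9% ± 5.88 (SD, n = 5; limma adjusted p = 0.0480 and 0.0136). No regulator passed for H3K27me3 (0 of 2 tested), H3K27ac (0 of 14), Suz12 (0 of 13) or Ring1B (0 of 14). Over all genes tested the shares passing were 56.8, 1.46, 0 and 0.085% in the same order. Of 21 known Foxo1 targets, 16 could be tested for H2AK119Ub and 4 passed, all higher, beside the same 31%, among them the homing gene S1pr1 (to 31.7% ± 9.66), the cell cycle inhibitor Cdkn1b (to 32.1% ± 18.5) and the pseudokinase Trib3 (to 41.1% ± 7.67), each from 0% at 0 h. For H3K27me3, 2 of 5 targets tested passed, both higher, beside 56.5% of all genes tested, among them Rag2 of V(D)J recombination, from 39.2% ± 8.75 (n = 3) to 73.9% ± 19.3 (n = 4). For H3K27ac 1 of 13 passed, beside 1.46% of all genes tested: the stress gene Gadd45b, from 0% to 93.0% ± 9.0 (n = 3). None passed for Suz12 (0 of 16, beside 0% of all genes tested) or Ring1B (0 of 20, beside 0.085%). The median H2AK119Ub difference was 10.4 points over the regulators and 16.7 over the targets, beside 18.0 over all genes. Pik3cd, Pik3r1 and Cdkn1b met the filter of a peak in at least 3 libraries only through the 24 h group, where they are high. How many 12 h libraries of S1pr1 had an H2AK119Ub peak is not given here.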

How the data were processed

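CUT&RUN was measured with 6 antibodies in 61 libraries of 18 groups. The build was mm10 and the tools were Bowtie2 2.3.4.1, Trimmomatic 0.32, deepTools 3.5.1 and Picard, per the submitters' processing notes. The names of the deposited lists give SEACR, the Cast allele and the settings, which were norm and relaxed for histone marks and non, top 0.01 and stringent for Suz12 and Ring1B, with 1 list per library. The deposited lists give each peak's position and the total and highest signal as the authors' values, which were used only to rank peaks within a list. Read depth, the SEACR version and the rule that assigned reads to the Cast allele are not given in these sources, so no counting interval could be set. The antibody label was used for H3K9me3, which the sample titles spell differently.

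From the lists, the percent of each gene region under peaks was computed (gene and 2 kb each side, RefSeq GRCm38.p6 gene table) with Python 3.11.15. Genes with a peak in at least 3 libraries of a mark were fitted with limma 3.58.1 in R 4.3.3, a moderated F-test over the 3 times with trend and robust variance, and p-values were adjusted by Benjamini-Hochberg over all genes tested. A gene passed at an adjusted p under 0.05, and was then called between 2 times where the unadjusted p of that contrast was also under 0.05. The method was tested on simulated data. Alternatives were the cover divided by autosomal cover, the 50% of peaks with most signal, equal numbers of peaks, 2 other gene regions, 2 other filters, an arcsine scale, a replicate block, and each library left out in turn.

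The members and lists were chosen with earlier results of these data known. Values in every library are given for Foxo1 and Foxp1 and, per mark, for up to 5 further members with the largest difference among those past the threshold, or the 3 with the highest mean cover where fewer than 3 passed. Other members are given by counts and ranges, or were named after their values were seen. Sums of roles and correlations over members carry no test. Protein sequences were not used here. The results of 1 member and 2 genes of the Foxo1 target list are not reported here, and counts include them.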

Additional observations from a re-analysis of the deposited data

Results flagged for a closer look

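H2AK119Ub gave 3 values that stood far from the other libraries of their group, among 18 groups of 4 or 5 libraries examined at the named genes. A chance rate of about 1 in 20 does not apply directly, as the same libraries recur across genes and percents are bounded. At Foxf2 at 0 h, replicate 2 was covered to 66.3% and the other 3 libraries to 0 to 8.81%. At Foxf2 at 24 h, replicate 4 was covered to 52.6% and the other 4 libraries to 81.1 to 90.1%. At Foxq1 at 24 h, replicate 5 was covered to 43.7% and the other 4 libraries to 84.4 to 100%. Groups of 3 libraries were not examined in this way.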

How the results depend on the processing

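Of the values for single named genes under the alternatives, 430 kept their direction and their side of the threshold, 46 kept the direction and no longer passed, and 9 changed sign. H3K27me3 passed at 5 members, at 8 (all lower) after scaling by autosomal cover, at 2 with equal numbers of peaks, and at 4 to 12 with a library left out. Under that scaling the ratio differences were -6.85 at Foxc1, -17.6 at Foxc2 and -3.38 at Foxo6 for H3K27me3, and -30.1 at Foxo1 and -6.91 at Foxp1 for H3K27ac. H2AK119Ub passed at 13 members, at 18 after scaling, 7 with the 50% of peaks with most signal, 3 with equal numbers (2 higher, 1 lower), 8 with a peak in at least 1 library required, and 5 to 17 with a library left out. H3K9me3 passed at 1 member and at 0 with the 50% of peaks with most signal, and equal numbers and the start window left no member to test. H3K27ac passed at 0 members, and at 1 with the 50% of peaks (Foxn2) or the start window (Foxo3). Suz12 passed at 0 members in every setting run, but its difference at Foxp1 was 0.38 points with the 50% of peaks, 0.017 with equal numbers, and -1.52 to 0.29 with a library left out. Ring1B passed at 1 member, at 4 with the 50% of peaks, 3 with equal numbers, and 0 with no flank, with the start window, with either other filter and with any library left out. The Ring1B difference at Foxd2 ran from -1.26 to 2.41 points with a library left out. Counts of members under the alternatives have no background, as the shares of all genes passing there are not given here.

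The labels do not say whether libraries with the same replicate number share an animal. Within each mark, same-numbered libraries correlated in their deviations from the group means at -0.214 to 0.0819. Such a correlation of cover cannot show whether they share an animal. With the replicate block, H3K27me3 passed at 4 members, H2AK119Ub at 2 (Foxf1 and Foxq1), Ring1B at 0, H3K9me3 at 1, and H3K27ac and Suz12 at 0. The adjusted p for H2AK119Ub was then 0.0522 at Foxo1 and 0.0810 at Foxp1. The cause of these changes was not tested. Lists grew from 0 to 24 h, so a percent covered moves with list length, and a region already fully covered cannot rise. Read depth is unknown, so a missing peak does not show that a mark is absent.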
